A study of Mus musculus with 2 samples.

Results

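The costimulatory receptors of T cells described here are Icos, Tnfrsf4, Tnfrsf9, Tnfrsf18, Cd27, Cd28 and Cd226, which were matched by symbol to the gene column of the deposited count matrices. They are 7 of the 34290 genes listed there, and all 7 were found, each under 1 gene identifier. A T cell that meets its antigen needs a costimulatory signal besides that of its antigen receptor to divide and to survive. Cd28 and Icos are related receptors of the immunoglobulin superfamily: Cd28 is present on naive T cells and binds Cd80 and Cd86, whereas Icos is induced by activation and binds Icosl. Cd226 (DNAM1), also of the immunoglobulin superfamily, binds Pvr and Nectin2 and competes for Pvr with the inhibitory receptors Tigit and Cd96. Tnfrsf4 (OX40), Tnfrsf9 (CD137), Tnfrsf18 (GITR) and Cd27 belong to the tumour necrosis factor receptor superfamily and signal through TRAF adaptors to NF-kB. Their ligands are Tnfsf4, Tnfsf9, Tnfsf18 and Cd70. Tnfrsf4, Tnfrsf9, Tnfrsf18 and Icos are known for high levels on regulatory T cells inside tumours.

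The genes lie on 4 chromosomes of the GRCm38 build (mm10), per the GENCODE M21 annotation. Cd28 (60716800 to 60773359) and Icos (60977927 to 61000320) share chromosome 1, on the plus strand, with the inhibitory receptor Ctla4 between them: Ctla4 starts 113640 bases after Cd28 ends, and Icos starts 62094 bases after Ctla4 ends. Tnfrsf4 and Tnfrsf18 are neighbours on the plus strand of chromosome 4 (156013843 to 156016612 and 156026164 to 156028895), 9551 bases apart, and Tnfrsf9 (150914562 to 150946102, plus strand) lies 5067740 bases from Tnfrsf4 on the same chromosome. Cd27 lies on the minus strand of chromosome 6 (125232622 to 125237010) and Cd226 on the plus strand of chromosome 18 (89176967 to 89272229).

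Single-cell RNA sequencing was done on tumour tissue taken on day 21 after mice were engrafted with MC38, a line of mouse colorectal cancer cells. There was 1 library of tumours from MC38 cells lacking TMEM16F, a phospholipid scramblase encoded by Ano6 (TMEM16F KO), and 1 library of tumours from vector control MC38 cells. The mice received no treatment, per the labels. The deletion was in the engrafted cells, so the receptors were read in immune cells of the host in both groups. The sources used here do not give the strain, age or number of mice behind a library, nor whether the MC38 KO line was 1 clone.

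Each group has 1 library and hence no replicate, and no test was made. Intervals are 95% intervals from the counts and cover counting error only. Differences due to the deletion and those due to the individual tumours or their handling cannot be told apart. The TMEM16F KO matrix held 49777630 UMIs (unique transcript tags) in 5993 barcodes and the vector control matrix held 46338994 UMIs in 5253 barcodes. The study states 10782 cells. The files hold 11246 barcodes, of which 10716 were kept, 5688 in the TMEM16F KO library (median 5995 UMIs) and 5028 in the vector control library (median 6019.5 UMIs). The libraries shared 10 barcode sequences. Although the study's text speaks of infiltrating lymphocytes, 31.6% of TMEM16F KO cells and 40.4% of vector control cells were classed as phagocytes, with phagocyte markers at 1% of their UMIs or more, and met the rule of no other class. The targeted gene cannot check the labels here: Ano6 had 1527 UMIs in the TMEM16F KO library and 1235 UMIs in the vector control library over all kept cells (ratio 1.16, interval 1.08 to 1.25), but most kept cells carried immune markers and this chemistry reads 3′ ends, which can persist after a deletion upstream.

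Each cell took a class from its own marker UMIs, with no receptor of the set among the markers. CD8 T cells numbered 1011 in the TMEM16F KO library and 752 in the vector control library. Regulatory T cells, T cells with a Foxp3 UMI, numbered 163 in TMEM16F KO and 119 in vector control tumours, and conventional CD4 T cells numbered 107 in TMEM16F KO and 77 in vector control tumours. The latter had a Cd4 UMI and no Foxp3 UMI, so regulatory T cells whose Foxp3 was not captured may be among them. T cells without a Cd4, Cd8a, Cd8b1 or Foxp3 UMI, called the remaining T cells below, numbered 447 in TMEM16F KO and 286 in vector control tumours. TMEM16F KO tumours had 217 natural killer (NK) cells, 1796 phagocytes and 109 dendritic cells, and vector control tumours had 103, 2032 and 98 of these. Neutrophils, B cells and stroma had under 50 cells in each library and were given no ratio. Barcodes with markers of more than 1 class made up 7.40% of TMEM16F KO and 7.86% of vector control cells, and 24.2% and 22.6% met no rule. Levels are given in CPM (UMIs of the gene scaled to a common total of UMIs in the class). Foxp3 stood at 297 CPM in TMEM16F KO and 285 CPM in vector control regulatory T cells. In NK cells Ncr1 stood at 353 and 354 CPM and Cd3e at 6.18 and 6.23 CPM. The class rules use these genes, so their levels do not check the classes. Ikzf2 and Il2ra, outside the rules, were planned as checks of regulatory T cells. Ikzf2 stood at 582 and 825 CPM in regulatory, 247 and 310 CPM in conventional CD4 and 69.4 and 99.4 CPM in CD8 T cells. Il2ra stood at 406 and 382, 187 and 183, and 83.5 and 54.8 CPM in these classes. Phagocyte transcripts were present in all lymphocyte classes, and the summed level of 6 phagocyte markers was 1705 to 2707 CPM in the TMEM16F KO and 1013 to 2297 CPM in the vector control lymphocyte classes. In every lymphocyte class it was higher in the TMEM16F KO library, and its part in the results below was not tested.

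Across classes, Cd28 had its highest level in T cells and its lowest in phagocytes and dendritic cells. In the TMEM16F KO library it stood at 389 CPM in conventional CD4 T cells, 277 CPM in CD8 T cells and 274 CPM in regulatory T cells, followed by 163 CPM in NK cells and 148 CPM in the remaining T cells. In the vector control library it stood at 259.9 CPM in regulatory T cells, 210.2 CPM in CD8 T cells, 206 CPM in conventional CD4 T cells, 117 CPM in NK cells and 91.8 CPM in the remaining T cells. The level in conventional CD4 T cells led in the TMEM16F KO library, whereas in the vector control library its interval overlapped that of CD8 T cells; CD8 and regulatory T cells overlapped in the TMEM16F KO library. NK cells and the remaining T cells overlapped in both libraries. Of all Cd28 UMIs, 53.9% in the TMEM16F KO library and 58.8% in the vector control library came from CD8 T cells.

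Icos followed the order regulatory T cells, conventional CD4 T cells, CD8 T cells, remaining T cells and NK cells in both libraries. The part of regulatory T cells without a Foxp3 UMI in the conventional CD4 levels, here and for the receptors below, was not tested. Regulatory T cells held 784 CPM in TMEM16F KO and 637 CPM in vector control tumours, and conventional CD4 T cells held 530.45 and 436 CPM. CD8 T cells held 276 CPM of Icos in the TMEM16F KO library and 124 CPM in the vector control library. The intervals of CD8 T cells and the remaining T cells were apart in the TMEM16F KO library (276 and 165 CPM) and overlapped in the vector control library (124 and 108 CPM). NK cells were near the bottom, at 35.7 CPM in TMEM16F KO and 31.2 CPM in vector control tumours.

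Cd226 had another order, with CD8 T cells and NK cells at the top. It stood at 109 CPM in CD8 T cells and 90.7 CPM in NK cells of TMEM16F KO tumours, and at 87.1 and 89.8 CPM in those classes of vector control tumours; the intervals of these classes overlapped in both libraries. Regulatory T cells had 18.4 CPM of Cd226 in TMEM16F KO and 11.5 CPM in vector control tumours, the lowest level among lymphocytes, on 18 and 10 UMIs, and its interval overlapped that of conventional CD4 T cells in the TMEM16F KO library. CD8 T cells supplied 63.7% of Cd226 UMIs in the TMEM16F KO library and 65.7% in the vector control library.

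Among the receptors of the tumour necrosis factor superfamily, Tnfrsf4 was the one most weighted towards regulatory T cells. These cells held 36.6% of its UMIs in the TMEM16F KO library and 34.6% in the vector control library, although they made up 2.87% and 2.37% of kept cells. Tnfrsf4 stood at 2057 CPM in TMEM16F KO and 1481 CPM in vector control regulatory T cells, at 892 and 886 CPM in conventional CD4 T cells, at 296 and 155 CPM in the remaining T cells, and at 148 and 120.1 CPM in CD8 T cells. In NK cells it was almost absent, with 11 UMIs in TMEM16F KO and 1 UMI in vector control tumours.

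Tnfrsf9 was led by regulatory and conventional CD4 T cells too, and it was also read in phagocytes and dendritic cells. It stood at 1383 CPM in TMEM16F KO and 1168 CPM in vector control regulatory T cells, at 923 and 716 CPM in conventional CD4 T cells, and at 783 and 637 CPM in CD8 T cells, where the last 2 classes overlapped in the vector control library. NK cells followed with 484 CPM in TMEM16F KO and 320.4 CPM in vector control tumours, and the remaining T cells with 372 and 257 CPM. Phagocytes held 131 CPM in TMEM16F KO and 65.6 CPM in vector control tumours, and dendritic cells 76.9 and 61.0 CPM.

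Tnfrsf18 again led in regulatory T cells, at 968 CPM in TMEM16F KO and 860.2 CPM in vector control tumours, ahead of conventional CD4 T cells at 655 and 513 CPM. CD8 T cells followed at 257 and 216 CPM and the remaining T cells at 219 and 204 CPM, with overlapping intervals in the vector control library. Cd27, which is present on resting T cells, was spread more evenly over T cells. It stood at 181 CPM in TMEM16F KO and 125 CPM in vector control regulatory T cells, at 138 and 109 CPM in CD8 T cells, and at 87.4 and 95.05 CPM in conventional CD4 T cells. In the vector control library these 3 classes overlapped in that order, each with the next. Outside T and NK cells, Tnfrsf18 had 32.1 CPM (22.7 to 44.1) in TMEM16F KO and 40.1 CPM (29.8 to 52.9) in vector control dendritic cells. NK cells had 40.5 CPM of Cd27 in TMEM16F KO and 38.6 CPM in vector control tumours.

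**Figure D1:**
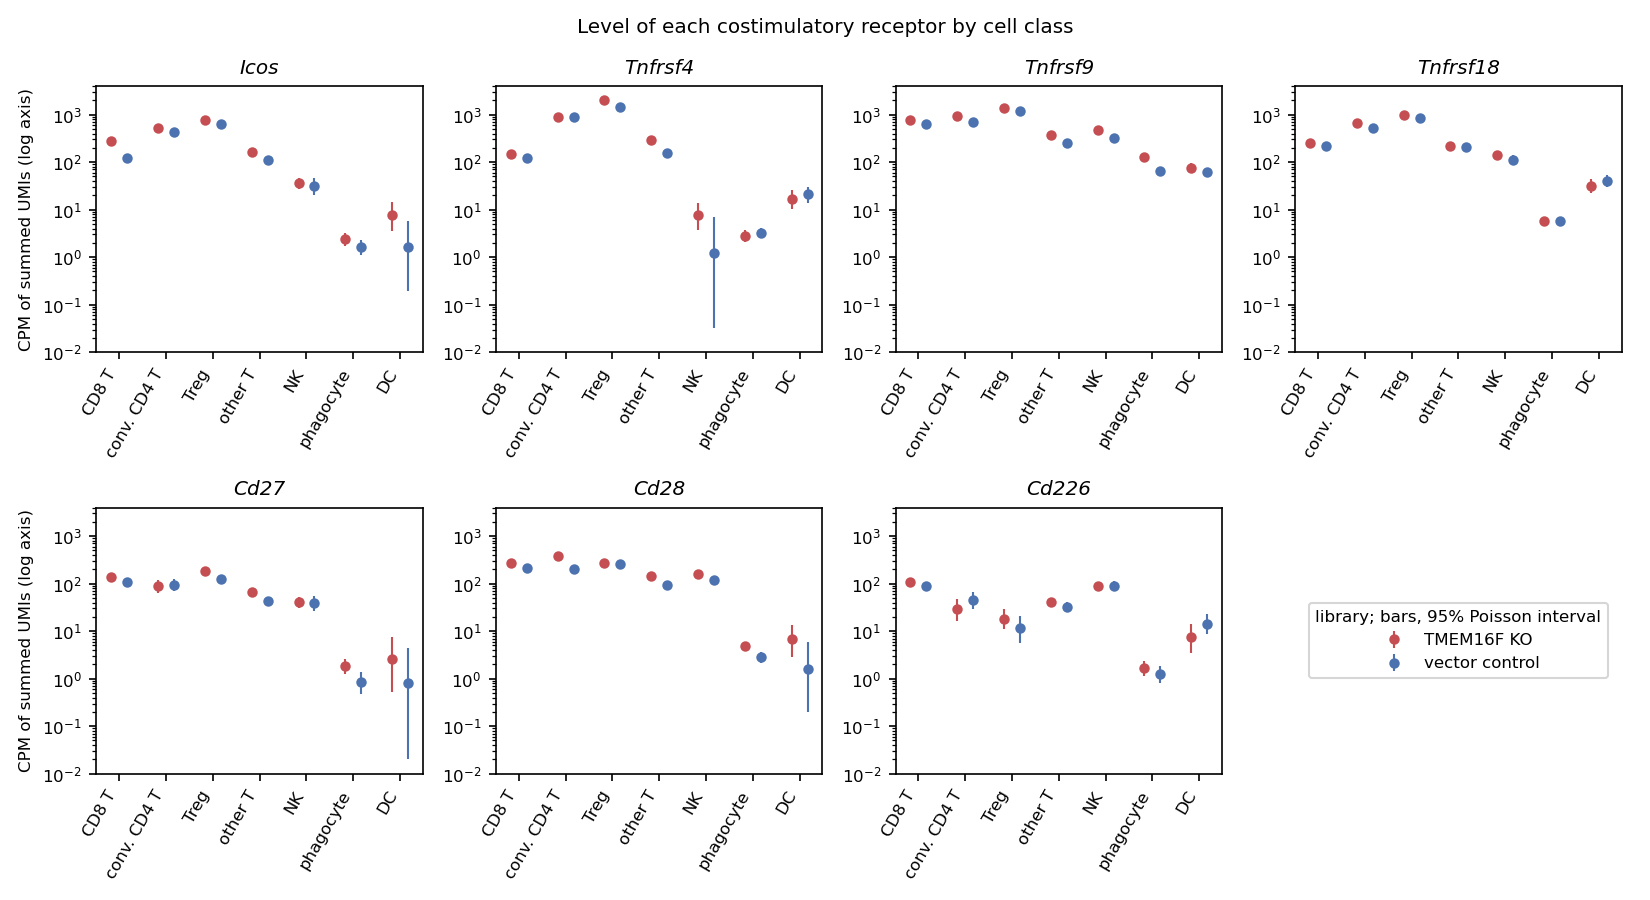
Level of each receptor in 7 cell classes, in CPM of each class (log axis), with the TMEM16F KO library left of the vector control library and exact Poisson 95% intervals as bars. Icos, Tnfrsf4, Tnfrsf9 and Tnfrsf18 peak in regulatory T cells in both libraries, Cd226 in CD8 T and NK cells, and only Tnfrsf9 stays above 50 CPM in phagocytes.

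In CD8 T cells, all 7 receptors were higher in the TMEM16F KO than in the vector control library, and Icos stood apart from the other 6. Icos had 2013 UMIs (276 CPM, interval 264 to 288) in TMEM16F KO and 809 UMIs (124 CPM, interval 116 to 133) in vector control CD8 T cells, a ratio of 2.22 (interval 2.05 to 2.41). Among the 11968 genes with at least 20 UMIs in this class, 1.60% had a higher ratio. The other 6 receptors had ratios between 1.19 and 1.32: Tnfrsf18 stood at 1.19 (1.11 to 1.28), Tnfrsf9 at 1.23 (1.18 to 1.28), Tnfrsf4 at 1.23 (1.12 to 1.35), Cd226 at 1.25 (1.12 to 1.39), Cd27 at 1.27 (1.15 to 1.40) and Cd28 at 1.32 (1.23 to 1.41). All 7 intervals left out 1, as did 33.6% of intervals over all genes of the class. Icos was the 1 member of 7 at least 1.5-fold apart, where 18.7% of all genes were, in either direction. The median log2 ratio was 0.32 over the 7 receptors and -0.03 over all genes, of which 47.1% had a ratio above 1.

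The share of CD8 T cells with an Icos UMI was also higher in the TMEM16F KO library after depth was made equal. With each cell thinned to 2000 UMIs, 38.2% of TMEM16F KO cells (interval 35.1 to 41.3) and 22.8% of vector control cells (19.8 to 26.1) had an Icos UMI, leaving out 50 and 51 shallower cells. Without thinning the shares were 66.9% and 50.5%, at medians of 5674 UMIs in TMEM16F KO and 6697.5 UMIs in vector control CD8 T cells. In phagocytes, which should lack Icos, the thinned shares were 0.492% and 0.446%. CD8 T cells with 2 or more Icos UMIs after thinning made up 14.4% in TMEM16F KO and 5.42% in vector control tumours, so cells with several copies were also more frequent. For Tnfrsf9 the thinned shares were 68.7% (65.6 to 71.6) of TMEM16F KO and 61.6% (57.9 to 65.2) of vector control CD8 T cells, and for Cd28 43.1% (39.9 to 46.3) of TMEM16F KO and 35.7% (32.1 to 39.3) of vector control cells. For Cd27 they were 25.4% (22.7 to 28.3) and 20.3% (17.3 to 23.4), with intervals that overlapped. For Tnfrsf4 (19.7% and 19.3%), Tnfrsf18 (37.4% and 34.8%) and Cd226 (18.8% and 18.1%) the intervals of the shares overlapped. After thinning to 1000 UMIs instead, 13.6% of TMEM16F KO and 8.49% of vector control CD8 T cells had a Tnfrsf4 UMI, and without thinning 38.9% and 39.9% did, so for Tnfrsf4 the difference depended on the depth.

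**Figure D2:**
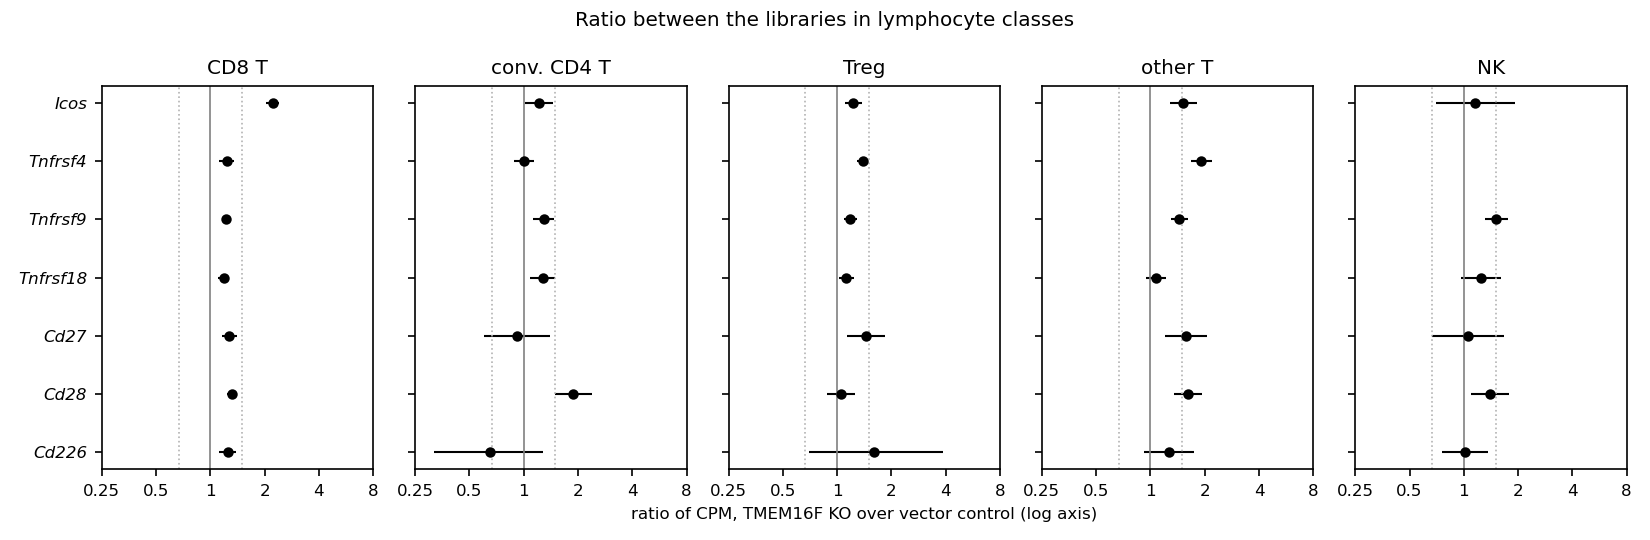
Ratio of the summed level in TMEM16F KO over vector control tumours for each receptor in 5 lymphocyte classes (log axis), with exact conditional 95% intervals. The solid line marks a ratio of 1 and the dotted lines 1.5-fold either way; a member with under 20 UMIs in a class (Tnfrsf4 in NK cells) is not drawn, and Icos in CD8 T cells has the highest ratio drawn, at 2.22.

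CD8 T cells were split into states by their UMIs, since the libraries differed in the make-up of this class. Cells with at least 3 of 10 cycling markers made up 12.3% of TMEM16F KO and 18.6% of vector control CD8 T cells, and other cells with a UMI of Gzmb, a granule protease of effector cells, 68.8% and 54.0%. The cycling cells were deeper, with medians of 11855.5 UMIs in TMEM16F KO and 13583 UMIs in vector control tumours, and weighed more in summed levels than their share of cells. Tcf7 encodes a transcription factor of naive and memory-like T cells, and cells with neither Gzmb nor Tcf7 made up 14.6% of TMEM16F KO and 24.5% of vector control CD8 T cells. Icos was higher in the TMEM16F KO library in each of these 3 states. In cycling cells it stood at 221 CPM in TMEM16F KO and 76.7 CPM in vector control tumours (ratio 2.88, interval 2.41 to 3.46), in Gzmb cells at 316 and 157 CPM (2.01, 1.81 to 2.24), and in cells with neither at 199 and 135 CPM (1.47, 1.16 to 1.87). The Tcf7 cells without Gzmb were 43 in TMEM16F KO and 22 in vector control tumours, too few for a ratio, and there Icos ran the other way, at 75.8 CPM (44.1 to 121) and 162 CPM (99.1 to 250). Every other receptor of the set was also lower in the TMEM16F KO library in this state. The share of all genes that were lower was not taken in this state, so the count is no result about the receptors. For each receptor, Icos included, the intervals of the libraries overlapped.

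The other receptors were also read by state, with no test of a difference between receptors or states. The share of all genes that were higher was not taken within states. How many receptors were higher in a state is thus no result about the receptors. Each of them was higher in cycling CD8 T cells of TMEM16F KO tumours, where Cd226 had 111 CPM in TMEM16F KO and 54.1 CPM in vector control tumours (ratio 2.06, 1.64 to 2.60), Cd27 121 and 69.1 CPM (1.75, 1.42 to 2.17), Cd28 239.9 and 139 CPM (1.73, 1.49 to 2.01) and Tnfrsf9 758 and 510.4 CPM (1.49, 1.37 to 1.61). In Gzmb cells, Tnfrsf4 had 160 CPM in TMEM16F KO and 116 CPM in vector control tumours (1.38, 1.22 to 1.58), Cd28 had 292 and 253 CPM (1.15, 1.05 to 1.26), and Cd27 (1.06, 0.938 to 1.21) and Cd226 (1.09, 0.941 to 1.25) had intervals that held 1. In cells with neither Gzmb nor Tcf7, Tnfrsf4 had 149 CPM in TMEM16F KO and 194 CPM in vector control tumours (0.769, 0.603 to 0.976), and Cd226 had 78.0 and 109.7 CPM (0.711, 0.508 to 0.987). In those cells the intervals of Tnfrsf9 (0.968, 0.849 to 1.10) and Tnfrsf18 (0.932, 0.763 to 1.14) held 1, and Cd28 (1.24, 1.03 to 1.49) and Cd27 (1.29, 1.01 to 1.66) were higher in TMEM16F KO tumours. Cd28, like Icos, was thus higher in each of the 3 states with a ratio. In the Tcf7 cells without Gzmb it was lower, at 156 CPM in TMEM16F KO and 251 CPM in vector control tumours. Without the cycling cells, Icos kept a ratio of 1.92 (1.75 to 2.11) over all other CD8 T cells, and the other 6 had ratios from 1.02 to 1.15. The intervals of Cd27 (0.975 to 1.22) and Cd226 (0.897 to 1.15) then held 1.

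**Figure D3:**
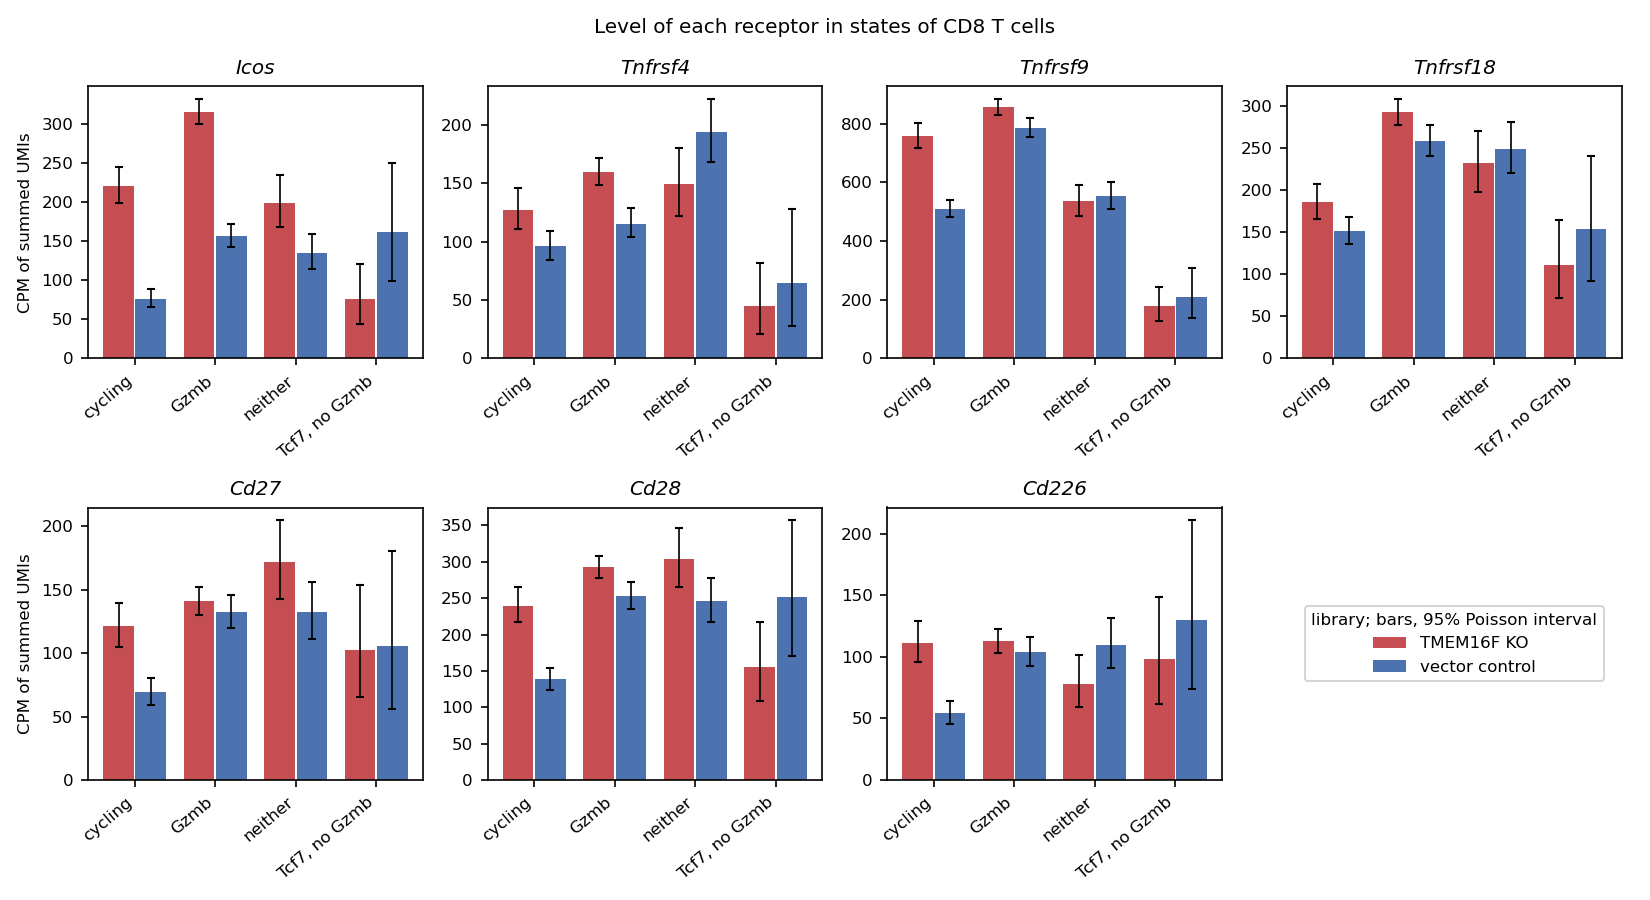
Level of each receptor, in CPM, in 4 states of CD8 T cells, with TMEM16F KO bars left of vector control bars and exact Poisson 95% intervals. Icos is higher in TMEM16F KO cells in the cycling, Gzmb and neither states, whereas Tnfrsf4 and Cd226 are lower there in the state with neither Gzmb nor Tcf7. In the Tcf7 cells without Gzmb, which are few, every receptor is lower in TMEM16F KO cells, with overlapping intervals. The shares of all genes that were higher or lower were not taken within states.

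In regulatory T cells, all 7 receptors again had higher summed levels in the TMEM16F KO library, but by less for Icos than in CD8 T cells. Icos had a ratio of 1.23 (1.10 to 1.38), Tnfrsf4 of 1.39 (1.29 to 1.49), Tnfrsf9 of 1.18 (1.09 to 1.29), Tnfrsf18 of 1.12 (1.02 to 1.24) and Cd27 of 1.44 (1.13 to 1.85). Cd28 (1.05, 0.880 to 1.26) and Cd226 (1.60, 0.701 to 3.88) had intervals that held 1, and Cd226, on 18 and 10 UMIs, was the 1 member of 7 at least 1.5-fold apart, where 20.6% of all genes were. The median log2 ratio was 0.30 over the members and 0.02 over all genes. Among regulatory T cells that were not cycling, Icos stood at 852 CPM in TMEM16F KO and 948 CPM in vector control tumours (ratio 0.899, 0.787 to 1.03), and Tnfrsf9 (0.986), Tnfrsf18 (0.968) and Cd28 (0.862) were also below 1. Tnfrsf4 was still higher there, at 2553 and 2093 CPM (1.22, 1.12 to 1.33). Cycling cells were 18.4% of TMEM16F KO and 20.2% of vector control regulatory T cells. They were deeper, with medians of 9184.5 and 11352.5 UMIs, against 4057 and 4267 UMIs over the whole class. They thus weighed more in the summed levels than their share of cells. Icos stood at 670 CPM in TMEM16F KO and 345 CPM in vector control cycling cells. The part of this weight in the ratios was not tested. The share with an Icos UMI was 75.7% and 58.2% after thinning to 2000 UMIs, 49.7% and 47.5% after thinning to 1000 UMIs, and 84.7% and 84.0% without thinning, so its difference depended on the depth chosen.

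In conventional CD4 T cells, Cd28 was the receptor farthest apart between the libraries. It had 200 UMIs (389 CPM, 337 to 446) in TMEM16F KO and 115 UMIs (206 CPM, 170 to 248) in vector control cells, a ratio of 1.88 (1.49 to 2.39), and 1.50 (1.16 to 1.96) without cycling cells. The thinned share of cells with a Cd28 UMI was 53.8% (43.1 to 64.2) in TMEM16F KO and 42.3% (30.6 to 54.6) in vector control cells, with overlapping intervals. Cd226, on 15 and 25 UMIs, had a ratio of 0.650 (0.319 to 1.28). These were the 2 of 7 members at least 1.5-fold apart, where 40.4% of all genes were, so the count lay below the share over all genes. Icos had a ratio of 1.22 (1.02 to 1.45) over all cells and 0.759 (0.629 to 0.916) without cycling cells, and Tnfrsf4 of 1.01 (0.885 to 1.15) and 0.672 (0.581 to 0.778). Tnfrsf18 had a ratio of 1.28 (1.09 to 1.50) over all cells and 1.00 (0.836 to 1.20) without cycling cells. For Tnfrsf9 these were 1.29 (1.13 to 1.48) and 0.925 (0.797 to 1.07). The interval of Cd27 over all cells (0.920, 0.604 to 1.40) held 1. With each cell counted alike, Icos (0.877), Tnfrsf4 (0.788) and Tnfrsf9 (0.860) were below 1. The thinned share of cells with an Icos UMI, 46.2% in TMEM16F KO and 54.9% in vector control cells, ran against the summed level, and no order was read from it. Cycling cells made up 5.61% of TMEM16F KO and 13.0% of vector control cells of this class. The class also differed in genes of other cells: Lyz2 stood at 1558 CPM in TMEM16F KO and 445 CPM in vector control cells and Klrk1, a receptor of NK and CD8 T cells, at 97.2 and 10.8 CPM. Their part in these ratios was not tested.

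The remaining T cells had the largest number of members apart. Tnfrsf4 had 789 UMIs (296 CPM) in TMEM16F KO and 309 UMIs (155 CPM) in vector control cells, a ratio of 1.91 (1.67 to 2.19). Cd28 had a ratio of 1.61 (1.35 to 1.93), Cd27 of 1.57 (1.21 to 2.06), Icos of 1.52 (1.29 to 1.80) and Tnfrsf9 of 1.45 (1.30 to 1.62), while the intervals of Cd226 (1.26, 0.918 to 1.75) and Tnfrsf18 (1.07, 0.944 to 1.22) held 1. Thus 4 of 7 members were at least 1.5-fold apart, where 22% of all genes were, and the median log2 ratio was 0.61 over the members and 0.02 over all genes. Without cycling cells 1 of the 4, Tnfrsf4 (1.63, 1.42 to 1.87), stayed past 1.5-fold, and Icos (1.28), Cd27 (1.36) and Cd28 (1.33) did not. The shares of cells with a Tnfrsf4 UMI were 17.7% in TMEM16F KO and 17.5% in vector control cells after thinning, and the 1% of cells with the most Tnfrsf4 UMIs held 17.7% and 9.71% of them. The class was mixed, as it also held NK transcripts: Ncr1 stood at 41.6 CPM in TMEM16F KO and 20.6 CPM in vector control cells. Ikzf2 stood at 263 CPM in TMEM16F KO and 168 CPM in vector control cells, and Il2ra at 79.9 and 48.1 CPM. After thinning, 12.5% of TMEM16F KO and 11.5% of vector control cells had UMIs of both Icos and Tnfrsf4. These were 3.37 and 3.14 times the product of the shares with each. The part of regulatory T cells without a Foxp3 UMI in these ratios was not tested.

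In NK cells, Tnfrsf9 had 704 UMIs (484 CPM, 449 to 521) in TMEM16F KO and 257 UMIs (320.4 CPM, 282 to 362) in vector control cells, a ratio of 1.51 (1.31 to 1.75). It was the 1 of 6 measured members at least 1.5-fold apart, where 21% of all genes were. Leaving out the 1% of cells with the most Tnfrsf9 UMIs gave 1.44, and the thinned shares of cells with a Tnfrsf9 UMI were 35.7% in TMEM16F KO and 35.8% in vector control cells. The shares were 29.2% and 20.2% after thinning to 1000 UMIs and 61.8% and 56.3% without thinning, so the difference in share depended on the depth chosen. Cd28 had 163 CPM in TMEM16F KO and 117 CPM in vector control NK cells (1.39, 1.09 to 1.78). The intervals of Icos, Tnfrsf18, Cd27 and Cd226 held 1, and Tnfrsf4, with 11 and 1 UMIs, had a ratio of 6.06 with an interval of 0.881 to 261.

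The mean number of the 7 receptors seen per CD8 T cell was higher in the TMEM16F KO library. The receptors did not add to it alike. Thinned shares differed most for Icos (38.2% in TMEM16F KO and 22.8% in vector control) and little for Tnfrsf4 (19.7% and 19.3%) and Cd226 (18.8% and 18.1%). No other genes were set beside this number, and the part of cycling cells in it was not tested. After thinning to 2000 UMIs, the mean number of receptors with a UMI was 2.51 in TMEM16F KO and 2.13 in vector control CD8 T cells, and 24.5% and 13.4% of cells had 4 or more. Regulatory T cells had 4 or more in 70.9% of TMEM16F KO and 64.5% of vector control cells, and conventional CD4 T cells in 41.9% and 45.1%. No receptor was seen in 7.18% of TMEM16F KO and 9.70% of vector control CD8 T cells. In CD8 T cells the 21 pairs of receptors occurred together at 0.837 to 1.44 times the product of their shares. Tnfrsf4 with Tnfrsf18 was at 10.5% in TMEM16F KO and 9.56% in vector control cells, 1.43 times the product in each library, and Icos with Tnfrsf9 was at 29.9% and 14.7%, 1.14 and 1.04 times the product. These are descriptions of cells within a library, which are not replicates.

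**Figure D4:**
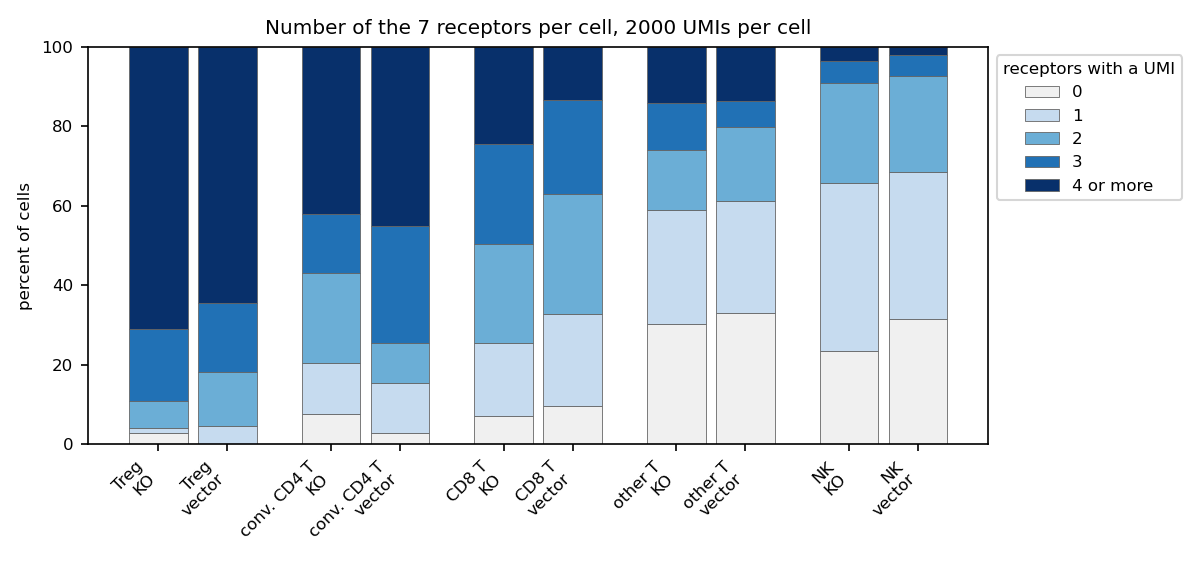
Percent of cells with UMIs of 0, 1, 2, 3 or at least 4 of the 7 receptors, after each cell was thinned to 2000 UMIs, in 5 lymphocyte classes with the TMEM16F KO bar left of the vector control bar. Regulatory T cells carry the most receptors, and CD8 T cells with at least 4 make up 24.5% in TMEM16F KO and 13.4% in vector control tumours.

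In phagocytes Tnfrsf9 lay farther above T cell genes than any other receptor of the set, relative to T and NK cells, and its level was higher in the TMEM16F KO library. It had 2359 UMIs (131 CPM, 125 to 136) in TMEM16F KO and 1250 UMIs (65.6 CPM, 62.0 to 69.4) in vector control phagocytes, a ratio of 1.99 (1.86 to 2.13), and 2.65% of the 12778 measured genes of the class had a higher ratio. Set against its own level in T and NK cells, the phagocyte level was 18.3% in TMEM16F KO and 11.1% in vector control tumours. For the other 6 receptors this figure lay between 0.838% and 2.09%, and for 7 T cell genes (Cd3d, Cd3e, Cd3g, Trac, Trbc2, Cd2 and Lck) between 0.467% and 1.36%. By the class rule a phagocyte could hold at most 1 UMI over Cd3d, Cd3e, Cd3g and Trac, which limited their figures in advance. For Trbc2, Cd2 and Lck, which were no part of the rule, the figure lay between 0.837% and 1.36%. Tnfrsf18, Cd28 and Cd226 were above that range in both libraries, at 1.53% to 2.09%. Phagocytes with 0 UMIs of Cd3d, Cd3e, Cd3g and Trac, 1258 in TMEM16F KO and 1487 in vector control tumours, had 130.5 and 62.3 CPM of Tnfrsf9 (ratio 2.09, 1.92 to 2.29), as much as all phagocytes. After thinning, 15.1% (13.4 to 16.9) of TMEM16F KO and 9.31% (7.91 to 10.9) of vector control phagocytes had a Tnfrsf9 UMI, leaving out 170 and 463 shallower cells; the unthinned shares were 34.0% and 22.3%.

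For Tnfrsf9, whose phagocyte level lay farthest above that of T cell genes, the promoter table of RefSeq (GRCm38.p6) lists 2 starts, and sequence before each is shown with matches to the NF-kB motif (GGG, any 2 bases, TTTCC) and the AP-1 motif TGANTCA in capitals, searched on both strands with no overlap between them. The 150 bases before the start at position 150920155 (chr4:150920005-150920154, plus strand), which lie within the GENCODE span of Tnfrsf9, hold neither:
Tnfrsf9 before first start: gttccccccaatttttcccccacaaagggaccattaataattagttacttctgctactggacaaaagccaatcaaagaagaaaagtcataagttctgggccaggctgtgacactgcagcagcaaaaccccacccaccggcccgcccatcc
Before the start at position 150927999, also within that span, the NF-kB match ends 34 bases (chr4:150927951-150927970, plus strand) and the AP-1 match 9 bases (chr4:150927979-150927995, plus strand) before the start, each shown with 5 bases on either side:
Tnfrsf9 NF-kB match: cagctGGGGATTTCCcagga
Tnfrsf9 AP-1 match: tcagtTGAGTCAcaggt
Among 32851 listed promoters, 1.41% hold the NF-kB motif and 6.75% the AP-1 motif within 250 bases before the start. The matches are a description of the letters, and counts of 3′ ends cannot tell which start was used.

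Among phagocytes, Tnfrsf9 went with Mmp12, a macrophage metalloelastase. Phagocytes with an Mmp12 UMI had 162 CPM of Tnfrsf9 in TMEM16F KO and 87.7 CPM in vector control tumours (ratio 1.85, 1.71 to 1.99), and those without had 56.2 and 31.4 CPM (1.79, 1.51 to 2.13). Phagocytes with a Tnfrsf9 UMI were also the deeper ones, with medians of 12107 UMIs in TMEM16F KO and 12997 UMIs in vector control tumours, against 7244 and 6520 UMIs in those without, and the part of depth in these subsets was not tested. Cycling phagocytes had 66.3 CPM in TMEM16F KO and 40.2 CPM in vector control tumours (1.65, 1.30 to 2.09). The difference between the libraries had the same direction in each of these subsets, which were chosen after values had been seen. Of the other members, Cd27 (33 and 16 UMIs, ratio 2.17, 1.16 to 4.23) and Cd28 (87 and 54 UMIs, 1.70, 1.20 to 2.43) were also past 1.5-fold in phagocytes. With Tnfrsf9 they made 3 of 7 members, where 14.7% of all genes were. As a share of the level in T and NK cells, Cd27 was at 1.61% in TMEM16F KO and 0.915% in vector control phagocytes, and Cd28 at 1.99% and 1.53%. In dendritic cells 1 of 4 measured members, Cd226 (9 and 18 UMIs, 0.526, 0.208 to 1.23), was past 1.5-fold, where 24.8% of all genes were, and Tnfrsf9 had 76.9 CPM in TMEM16F KO and 61.0 CPM in vector control cells (1.26, 0.919 to 1.73).

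**Figure D5:**
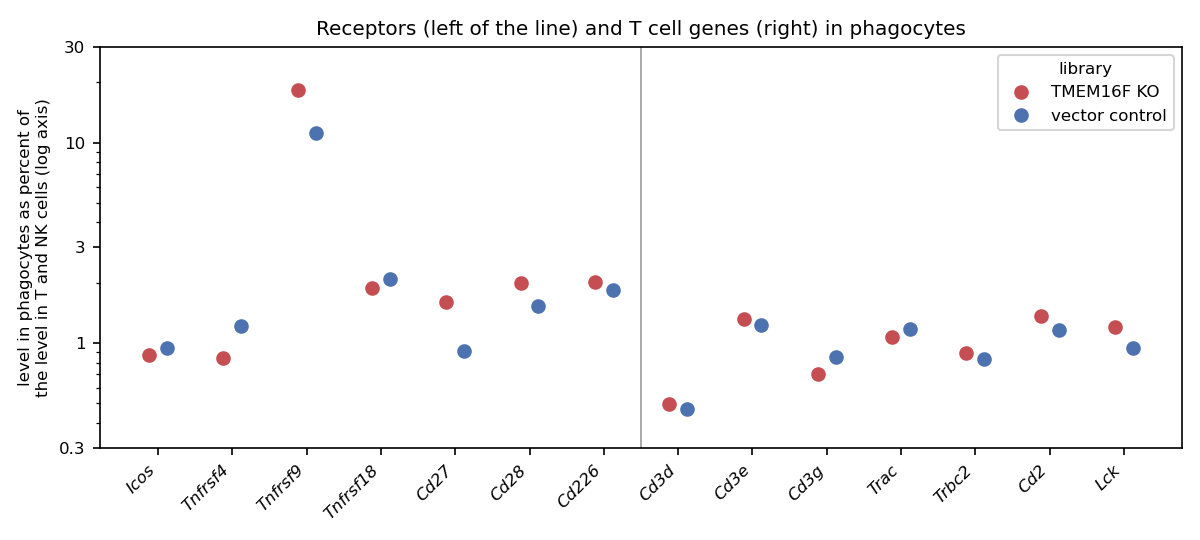
Level of each receptor, and of 7 T cell genes, in phagocytes as a percent of its level in T and NK cells of the same library (log axis), TMEM16F KO left of vector control. Tnfrsf9 lies at 18.3% in TMEM16F KO and 11.1% in vector control tumours, and all other genes shown lie between 0.467% and 2.09%. The class rule allowed phagocytes at most 1 UMI over Cd3d, Cd3e, Cd3g and Trac, which limits the values of these genes.

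The ligands are known mainly from antigen presenting cells and were read in phagocytes and dendritic cells first, although Tnfsf9 and Cd70 were also found in T cells and Tnfsf4 in NK cells. In phagocytes, Tnfsf9, the ligand of Tnfrsf9, had 106 CPM in TMEM16F KO and 80.1 CPM in vector control tumours (1.33, 1.24 to 1.42), and Cd86 had 237 and 166 CPM (1.43, 1.36 to 1.49). Cd80 (1.17, 1.04 to 1.32), Pvr (1.20, 1.00 to 1.44) and Nectin2 (1.60, 1.21 to 2.13) were higher as well. The ligand of Icos was lower, with 5.87 CPM of Icosl in TMEM16F KO and 8.56 CPM in vector control phagocytes (0.686, 0.532 to 0.881). In dendritic cells Icosl was higher, at 20.3 and 8.02 CPM on 24 and 10 UMIs (2.53, 1.16 to 5.92), as were Cd70 on 19 and 7 UMIs (2.86, 1.15 to 8.04) and Cd86 (1.43, 1.21 to 1.69), while Tnfsf9 had 177 CPM in TMEM16F KO and 202 CPM in vector control cells (0.873, 0.723 to 1.05). Of 6 measured ligands, 5 were higher in each of these classes, where 52.0% (phagocytes) and 47.9% (dendritic cells) of all genes were. NK cells had 33.7 CPM of Tnfsf4 in TMEM16F KO and 12.5 CPM in vector control tumours on 49 and 10 UMIs (2.70, 1.35 to 5.98) and 77.6 and 48.6 CPM of Tnfsf9 (1.60, 1.10 to 2.36). In phagocytes Tnfsf4 (7 and 6 UMIs) and Cd70 (7 and 5 UMIs) were too few for a ratio, and Tnfsf18 had at most 3 UMIs per library in any class.

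Ligand transcripts also appeared in T cells, where Cd86 stood out. It had 74.9 CPM in TMEM16F KO and 39.1 CPM in vector control CD8 T cells (1.91, 1.65 to 2.23), 185 and 21.5 CPM in conventional CD4 T cells (8.58, 4.69 to 17.2), 122 and 40.2 CPM in regulatory T cells (3.02, 2.06 to 4.54) and 160 and 93.3 CPM in the remaining T cells (1.72, 1.44 to 2.05). Among other ligands past 1.5-fold with an interval that left out 1, CD8 T cells had Pvr (1.82), Tnfsf4 (1.52) and Icosl (0.462, on 15 and 29 UMIs), conventional CD4 T cells had Cd70 (0.361, on 8 and 24 UMIs), and the remaining T cells had Cd80 (1.72). Tnfsf9 was at 97.3 CPM in TMEM16F KO and 91.0 CPM in vector control CD8 T cells (1.07, 0.958 to 1.20) and at 138 and 152 CPM in conventional CD4 T cells (0.905, 0.651 to 1.26). These levels stand beside the higher phagocyte markers of the TMEM16F KO lymphocytes given above, whose part in them was not tested.

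Inhibitory receptors, some of which share ligands with the members, were compared in the same classes. Of 9 in CD8 T cells, 7 were above and 2 below the vector control level, and the median log2 ratio of TMEM16F KO over vector control was 0.31, against -0.03 over all genes. Ctla4, which competes with Cd28 for Cd80 and Cd86, had 367 CPM in TMEM16F KO and 192 CPM in vector control CD8 T cells (1.91, 1.78 to 2.04), and Havcr2 had 177 and 108 CPM (1.64, 1.50 to 1.80). Tigit (1.24, 0.9496 to 1.63) and Cd96 (1.11, 0.967 to 1.28), the competitors of Cd226, had intervals that held 1. Pdcd1 (PD-1), just short of 1.5-fold and named after its values were seen, was lower, with 159 CPM in TMEM16F KO and 239 CPM in vector control CD8 T cells (0.667, 0.618 to 0.720). In regulatory T cells Ctla4 stood at 941 CPM in TMEM16F KO and 991 CPM in vector control tumours (0.949, 0.864 to 1.04), while Lag3 had 238 and 151 CPM (1.58, 1.27 to 1.97), Btla a ratio of 4.00 on 18 and 4 UMIs and Pvrig of 2.82 on 19 and 6 UMIs. The remaining T cells had Ctla4 at 192 and 104 CPM (1.84, 1.56 to 2.17), Havcr2 at a ratio of 1.73, Btla at 0.586, Tigit at 1.61 (0.807 to 3.39) and Cd96 at 1.19 (0.799 to 1.80). NK cells had Lag3 at 63.2 CPM in TMEM16F KO and 34.9 CPM in vector control tumours (1.81, 1.17 to 2.87) and Ctla4 at a ratio of 1.43 (1.02 to 2.03), and dendritic cells Btla at a ratio of 1.64. Conventional CD4 T cells had Ctla4 at a ratio of 1.13 (0.959 to 1.34), Havcr2 at 1.57 (1.00 to 2.46) and Cd96 at 1.77 (0.793 to 4.15). Tigit in regulatory T cells (1.09, 0.684 to 1.74) and Cd96 in NK cells (1.09, 0.718 to 1.67) had intervals that held 1.

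Of 12 other costimulatory receptors measured in CD8 T cells, 8 had a ratio above 1, as had 47.1% of all genes, and 4 below (median log2 ratio 0.26), and Slamf6, a receptor of the SLAM family, had 8.62 CPM in TMEM16F KO and 4.91 CPM in vector control cells (1.76, 1.13 to 2.78). In conventional CD4 T cells 9 of 11 were higher and 4 at least 1.5-fold higher, where 54.0% and 23.6% of all genes were, led by Klrk1 (9.03) and Cd84 (2.82), with Cd40lg, the ligand by which CD4 T cells stimulate antigen presenting cells, at 117 CPM in TMEM16F KO and 73.5 CPM in vector control cells (1.59, 1.05 to 2.42) and Tnfrsf1b at 1.52. Klrk1 was also past 1.5-fold in regulatory T cells (1.93), and Crtam, an activation-induced receptor of CD8 T and NK cells, in the remaining T cells (2.94), NK cells (2.13) and phagocytes (2.90, on 22 and 8 UMIs). Dendritic cells had Tnfrsf1b (1.86) and Cd244a (2.22) past that size.

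Genes downstream of the receptors (TRAF adaptors, NF-kB subunits, survival factors, kinases and targets) showed small differences in CD8 T cells. There 19 of 23 were higher in TMEM16F KO tumours, where 47.1% of all genes were, and 4 lower, with a median log2 ratio of 0.16. None was 1.5-fold higher, and 1 was 1.5-fold lower, Il2 on 13 and 19 UMIs (0.610). In regulatory T cells 12 of 22 were higher and 10 lower (median 0.10), and 52.2% of all genes were higher. In the remaining T cells 19 of 22 were higher and 5 at least 1.5-fold higher (median 0.43), where 51.3% and 10.3% of all genes were, with Pik3r1 (1.79), Bcl2 (1.71), Pik3cd (1.70), Icam1 (1.68) and Birc3 (1.58) past 1.5-fold. Conventional CD4 T cells had 19 of 22 higher and 13 at least 1.5-fold higher (median 0.64), where 54.0% and 23.6% of all genes were. The cytokine Il2 led there, with 159 CPM in TMEM16F KO and 34.1 CPM in vector control cells (4.68, 2.81 to 8.16), followed by the survival factor Bcl2 (2.55), Traf3 (2.14), Pik3r1 (2.00) and Prkcq (1.79), whereas Traf2 was lower (0.424, on 9 and 23 UMIs). That class is also the one with 40.4% of all genes at least 1.5-fold apart, as given above.

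Over the 14 levels of 7 classes in 2 libraries, the gene whose pattern was most like that of Icos was Ctla4 (Pearson r 0.99 of log2(CPM + 10), among 10317 genes), followed by Vps54 and Agfg1. Fam107b, Lck and Tnrc6b were most like Cd28 (r 0.99 for the first), Grap, Msi2 and Prrc2b most like Tnfrsf18 (0.99), Cpm, Penk and Cd5 most like Tnfrsf4 (0.98), and Cers4, Dgka and Camk4 most like Cd27 (0.98). Leprotl1, Cers4 and Cds2 were most like Tnfrsf9 (0.98), and Eef1a1, Ppm1j and Gm35113 most like Cd226 (0.97). The points share libraries and classes, and by Spearman rank none of the 3 closest genes was the same for any member but Cd226.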

How the data were processed

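Single-cell libraries of day 21 MC38 tumours (TMEM16F KO, 1; vector control, 1) were made with 10x Genomics 3′ chemistry, per the labels' protocols. The deposited matrices hold raw UMI counts per gene and barcode, and their headers name Cell Ranger 8.0.0. The build mm10 and Seurat 3.1.1 are named in the submitters' processing notes, and the sources used here do not name the annotation. A barcode needed 200 genes and less than 20% of UMIs from mitochondrial genes, which removed 18 TMEM16F KO and 4 vector control barcodes. Scrublet's automatic threshold marked 0 barcodes in each library and did not work, so the highest scores were left out at 0.8% per 1000 barcodes (287 and 221 barcodes).

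Classes came from marker UMIs: at least 2 UMIs over Cd3d, Cd3e, Cd3g and Trac for T cells, then Cd8a or Cd8b1, Cd4 and Foxp3; Ncr1 or Klrb1c for NK cells; Lyz2, C1qa, C1qb, C1qc, Csf1r and Adgre1 at 1% of UMIs or more for phagocytes and under 1% for lymphocytes; and Flt3, Xcr1, Clec9a, Cd209a, Zbtb46, Ccr7, Fscn1 and Siglech for dendritic cells. Class names are thus not the authors' own, and differences from the study can stem from that. NK cells, phagocytes and dendritic cells could hold at most 1 UMI over Cd3d, Cd3e, Cd3g and Trac. UMIs were summed per class and library and divided by all UMIs of the class (CPM). Levels have exact Poisson, shares exact Clopper-Pearson and ratios exact conditional binomial 95% intervals. Ratios need 50 cells per library, and the share of all genes 1.5-fold apart was taken over genes with at least 20 UMIs. Shares were compared after thinning cells to 2000 UMIs (seed 1). The ratio intervals were tried on simulated counts with counting error only, as the intervals assume. That trial cannot show how they hold where cells or libraries vary.

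All 7 members are named, but not with a value in every class. Of the ligands, other costimulatory and inhibitory receptors and downstream genes, those named were past 1.5-fold with an interval without 1 (at most 6 per list and class), plus the members' ligands, Ctla4, Tigit and Cd96. The likeness used genes with at least 200 UMIs and a pseudocount of 10 CPM. The members and lists were chosen with earlier results of these data known. Python 3.11.15, numpy 2.4.6, scipy 1.17.1, pandas 2.3.3, scanpy 1.11.5 and matplotlib 3.10.9 were used. Alternatives were other marker thresholds, kept doublet-scored barcodes, other scalings, equal weight per cell, deeper cells and cells not cycling.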

Additional observations from a re-analysis of the deposited data

Results flagged for a closer look

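In CD8 T cells with neither a Gzmb nor a Tcf7 UMI, 2 receptors had a ratio of TMEM16F KO over vector control with an interval wholly below 1, where another state had an interval wholly above 1: Tnfrsf4 at 0.769 and Cd226 at 0.711. Tnfrsf9 (0.968) and Tnfrsf18 (0.932) were also below 1 there, with intervals that held 1. The difference between states was not tested, and the share of all genes with such ratios was not taken within states.

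Barcodes left out because they carried markers of more than 1 class, 421 in TMEM16F KO and 395 in vector control tumours, were used in no comparison. All 7 receptors were higher there in the TMEM16F KO library, but the share of all genes that were higher was not taken for these barcodes. The count is thus no result about the receptors. Cycling cells made up 15.7% of TMEM16F KO and 29.6% of vector control barcodes of this kind. The ratios were 1.44 for Icos, 1.20 for Tnfrsf4, 1.55 for Tnfrsf9, 1.27 for Tnfrsf18, 1.38 for Cd27, 1.76 for Cd28 and 1.49 for Cd226.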

How the results depend on the processing

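No paired analysis was possible because each group has 1 library. Of 45 ratios of the receptors, 17 lay on the other side of 1 under at least 1 setting, 5 of them ratios whose own interval left out 1. These 5 were Icos (1.22, lowest 0.759) and Tnfrsf9 (1.29, lowest 0.860) in conventional CD4 T cells and Icos (1.23, lowest 0.899), Tnfrsf9 (1.18, lowest 0.986) and Tnfrsf18 (1.12, lowest 0.968) in regulatory T cells, with the lowest value in cells not cycling except for Tnfrsf9 in conventional CD4 T cells, where it came with each cell counted alike. Over 502 repeats, 448 moved by less than the counting interval. Among ratios at least 1.5-fold apart, 1 crossed 1: Cd226 in dendritic cells, at 1.18 when T cells needed 1 marker UMI. Of 36 ratios of thinned shares, 11 crossed 1 without thinning or at 1000 UMIs, among them Cd28 in regulatory T cells (1.11, at 0.783 and 0.967), Cd226 in NK cells (1.17, at 0.844), Tnfrsf18 in phagocytes (1.22, at 0.520) and Tnfrsf4 in phagocytes (0.643, at 1.09). Icos in CD8 T cells ranged from 1.92 to 2.26, and Tnfrsf9 in phagocytes from 1.69 to 2.27, and the number of CD8 T cell members at least 1.5-fold apart was 1 under every setting.

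The numbers of members at least 1.5-fold apart moved in the other classes. In conventional CD4 T cells (2) it was 1 with phagocyte markers under 0.5% and 1 with doublet-scored barcodes kept. In regulatory T cells (1) it was 2 with phagocyte markers under 3% and 0 with at least 3 T cell marker UMIs, with cells of at least 2000 UMIs, with cells not cycling and, a setting chosen after seeing the data, without the 1% of cells richest in the gene. In the remaining T cells (4) it was 1 with at least 3 marker UMIs, 2 with each cell counted alike and 1 with cells not cycling. In NK cells (1) it was 3 with phagocyte markers under 3%, and 0 with at least 1 T cell marker UMI, doublet-scored barcodes kept, mitochondrial, ribosomal protein and haemoglobin genes left out, median of ratios, cells not cycling or the richest 1% of cells left out. In phagocytes (3) it was 5 with phagocyte markers under 0.5% and 5 with cells not cycling. In dendritic cells (1) it was 2 with phagocyte markers under 3%, 3 with each cell counted alike and 2 with cells not cycling. The cause was not tested. Both other scalings moved the median gene by under 0.1 on the log2 scale in each class. Precision is limited most for Cd226 outside CD8 T and NK cells and for all members but Tnfrsf9 in phagocytes and dendritic cells, where UMIs are few.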
